A study of Mus musculus with 8 samples.

Results

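Motile cilium and axoneme genes were followed in RNA-seq counts of the P1 mouse cortex, in 4 control and 4 dcKO_Nex-Cre libraries. The members were the protein-coding genes whose symbol begins with *Dnah*, *Dnai* followed by c or a digit, *Tekt*, *Rsph*, *Cfap*, *Drc* or *Spef*, together with *Foxj1*, *Spag6*, *Spag6l*, *Spag16*, *Spag17* and *Mcidas*, and they had to reach a mean of 10 raw counts over the 8 libraries. Of the 48709 genes listed, 72 carried such a name and 64 of these reached the mean. The set was chosen by values of these same libraries, namely the mean count of each gene and, for *Tekt1*, its level in the control and dcKO_Nex-Cre cortex. *Tekt1* is therefore given as a description without a test. The members nearest to the limit were *Dnah3*, with a mean of 13.75 counts, and *Cfap77* and *Dnah7c*, each with 14.625. Just below it were *Cfap221* with 6.25 and *Rsph14* with 6.125 counts, and the other 6 genes left out were *Cfap99*, *Cfap73*, *Spag6*, *Tekt3*, *Rsph6a* and *Cfap97d1*, with 0.375 to 5.5 counts.

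In the dcKO_Nex-Cre mice both alleles of BAF155 (*Smarcc1*) and BAF170 (*Smarcc2*), the core scaffold subunits of the BAF chromatin remodeling complex, were floxed and deleted by Nex-Cre, a Cre driven by the *Neurod6* promoter in postmitotic principal neurons of the cortex. Control mice were heterozygous for the floxed alleles (BAF155fl/+, BAF170fl/+) and carried no Cre, and all mice were on a C57BL6/J background. RNA was taken from whole cortical tissue at postnatal day 1, so glia, progenitors, ependyma and vessels that do not use Nex-Cre are part of every library. Total counts ranged from 18737230 to 24036915 in control and from 17958641 to 35191912 in dcKO_Nex-Cre libraries.

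The motile cilium is built on an axoneme, a ring of doublet microtubules around a central pair. Dynein arms on the doublets slide them past each other, the radial spokes and the central apparatus time that movement, and the nexin-dynein regulatory complex turns it into bending. Tektins are filament-forming proteins inside the doublets. In the brain such cilia are carried by ependymal cells, which line the ventricles and mature after birth. Epithelial cells of the choroid plexus carry cilia as well. *Mcidas* (multicilin) starts the multiciliated program, and *Foxj1*, a forkhead transcription factor, and RFX factors switch on the genes of motile cilia. Most neurons carry only a primary cilium, which lacks dynein arms and the central pair.

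The targeted genes fell but were not absent. *Smarcc2* was at 456, 486, 478 and 429 CPM (counts brought to one library size with the TMM factors of edgeR) in control replicates 1 to 4 and at 241, 292, 241 and 278 CPM in dcKO_Nex-Cre replicates 1 to 4 (log2 fold change -0.81, SE 0.09, 95% interval -1.01 to -0.62, adjusted p = 0.00267 from edgeR's quasi-likelihood test). *Smarcc1* was at 141, 146, 164 and 139 CPM in control and 93.04, 122, 100 and 93.4 CPM in dcKO_Nex-Cre replicates (log2 fold change -0.53, SE 0.10, 95% interval -0.75 to -0.31, adjusted p = 0.0348). In both genes the groups did not overlap. *Neurod6*, whose promoter drives the Cre, also fell (log2 fold change -0.74, SE 0.12, 95% interval -0.99 to -0.48, adjusted p = 0.0192). Control mice carried no Cre, so an effect of the Cre allele on *Neurod6* cannot be told apart from one of the deletion. *Neurod6* and *Emx1* were the 2 of 14 tested projection neuron markers that were called lower, against 0.51% of all genes tested. Mitochondrial genes took 2.33% to 6.87% of the counts, with the highest shares in control replicate 2 and dcKO_Nex-Cre replicate 4. Lane tag 8, as read in the file names, was carried by dcKO_Nex-Cre replicates 3 and 4 alone and lane tag 2 by the other 6 libraries, so that lane and genotype can be separated only within tag 2. *Ttr*, a marker of the choroid plexus, ranged from 2.86 to 1305 CPM over the 8 libraries.

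*Tekt1* encodes a tektin of the doublet microtubules (ENSMUSG00000020799, GRCm38 chromosome 11, 72344722 to 72362442, minus strand). Its promoter is shown because *Tekt1* is the member that differs most between the groups and because it holds an 8-base match to one side of the X-box, the imperfect inverted repeat bound by RFX factors. The RefSeq promoter of GRCm38.p6 at chr11:72361833-72362132, minus strand, runs from 250 bases before to 50 bases after the transcription start, and the capitals mark GTTGCCAT, which begins 15 bases before the start. It belongs to the first of 2 starts that RefSeq gives for *Tekt1* and lies within the span of the gene in GENCODE M21.

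Tekt1 promoter: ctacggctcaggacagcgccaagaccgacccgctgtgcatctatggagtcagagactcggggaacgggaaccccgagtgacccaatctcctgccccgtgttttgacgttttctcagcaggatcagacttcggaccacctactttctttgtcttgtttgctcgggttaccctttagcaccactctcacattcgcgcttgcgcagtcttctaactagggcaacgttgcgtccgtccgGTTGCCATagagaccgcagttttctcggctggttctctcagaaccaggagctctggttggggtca

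*Tekt1* was at 6.73, 5.91, 5.97 and 5.77 CPM in control replicates 1 to 4 and at 11.7, 13.6, 12.8 and 11.96 CPM in dcKO_Nex-Cre replicates 1 to 4. Every dcKO_Nex-Cre library was above every control library, and the spread within each group was small beside the gap. Such a separation upward was also seen in 3.99% of all genes tested. Since *Tekt1* was picked for its increase in these libraries, the values below describe it and do not test it. The mean was 6.10 ± 0.432 CPM in control and 12.5 ± 0.860 CPM in dcKO_Nex-Cre (SD, n = 4 each), which is 205% of control, and the log2 fold change was 1.04 (SE 0.11, 95% interval 0.79 to 1.28). These values rest on 108 to 147 counts per library in control and 213 to 403 in dcKO_Nex-Cre. Omitting any 1 library gave log2 fold changes from 0.998 to 1.09, and within lane tag 2 the value was 1.05. No gene with more counts overlaps *Tekt1*.

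**Figure D1:**
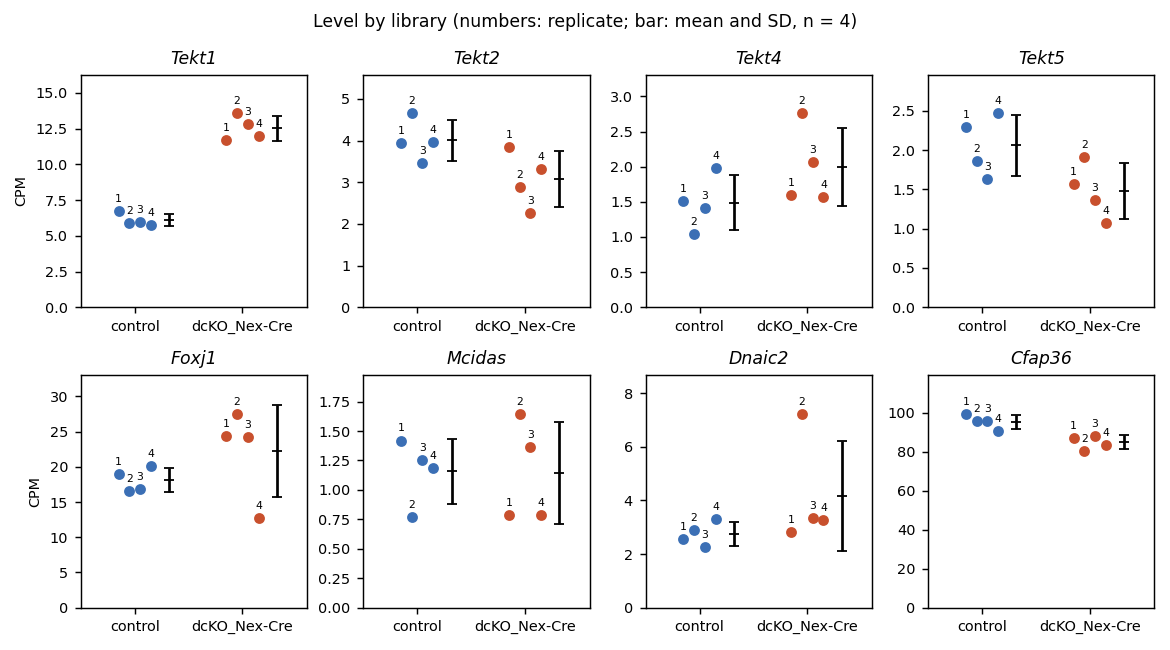
Level in CPM (vertical axes, starting at 0) of *Tekt1*, *Tekt2*, *Tekt4*, *Tekt5*, *Foxj1*, *Mcidas*, *Dnaic2* and *Cfap36* in the 4 control (blue) and 4 dcKO_Nex-Cre (orange) libraries, numbered by replicate, with the mean and SD as a black bar. The groups stand apart for *Tekt1* and, by a small step, for *Cfap36*, whereas single libraries stand apart in *Foxj1* (dcKO_Nex-Cre replicate 4 at 12.7 CPM) and *Dnaic2* (dcKO_Nex-Cre replicate 2 at 7.24 CPM).

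None of the 3 other tektins passed the test. *Tekt2* was at 3.94, 4.65, 3.46 and 3.96 CPM in control and 3.86, 2.87, 2.27 and 3.31 CPM in dcKO_Nex-Cre replicates (log2 fold change -0.37, SE 0.19, 95% interval -0.78 to 0.04, adjusted p = 0.401 from edgeR). *Tekt5* was at 2.29, 1.86, 1.63 and 2.47 CPM in control and 1.57, 1.92, 1.36 and 1.07 CPM in dcKO_Nex-Cre (log2 fold change -0.46, SE 0.23, 95% interval -0.96 to 0.03, adjusted p = 0.393). Both had a lower mean in the dcKO_Nex-Cre cortex with groups that overlapped. *Tekt4* was at 1.51, 1.04, 1.42 and 1.98 CPM in control and 1.59, 2.76, 2.06 and 1.57 CPM in dcKO_Nex-Cre (log2 fold change 0.42, SE 0.26, 95% interval -0.14 to 0.98, adjusted p = 0.486), with its highest value in dcKO_Nex-Cre replicate 2, without which the log2 fold change was 0.22. The intervals of these 3 genes end below the log2 fold change of *Tekt1*, but that of *Tekt4* overlaps the *Tekt1* interval of 0.79 to 1.28. *Tekt1* was picked for its increase, and the difference of these 3 genes from *Tekt1* was not tested. Per kilobase of exon, *Tekt1* went from 3.76 to 7.71 CPM, *Tekt2* from 2.11 to 1.62, *Tekt5* from 1.14 to 0.818 and *Tekt4* from 0.745 to 1.0.

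Genes beside *Tekt1* on chromosome 11 were examined next. Within 100 kb, 12 genes are annotated, *Tekt1* included, and 6 of them had enough counts to be tested. No other gene of the 6 passed the threshold. *Smtnl2*, which lies 26722 bases from *Tekt1* and is named here after its values were seen, was at 9.07, 7.17, 8.26 and 8.68 CPM in control and 7.13, 4.37, 5.78 and 4.15 CPM in dcKO_Nex-Cre (log2 fold change -0.62, SE 0.18, 95% interval -1.01 to -0.23, adjusted p = 0.160), the opposite direction and also without overlap between the groups.

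*Foxj1* was at 18.9, 16.5, 16.9 and 20.2 CPM in control replicates 1 to 4 and at 24.4, 27.6, 24.2 and 12.7 CPM in dcKO_Nex-Cre replicates 1 to 4. In the dcKO_Nex-Cre group 3 libraries were above all controls, and replicate 4 was below all of them. With all 8 libraries the difference did not pass the test (log2 fold change 0.30, SE 0.19, 95% interval -0.12 to 0.73, adjusted p = 0.510 from edgeR). Without dcKO_Nex-Cre replicate 4 it did, at a log2 fold change of 0.49 (SE 0.10, adjusted p = 0.0171 from edgeR over all genes), and within lane tag 2 it was 0.52 (adjusted p = 0.0525). Leaving out dcKO_Nex-Cre replicate 4 also raised the calls over all genes, from 61 higher and 83 lower to 659 and 619. Within lane tag 2 they were 140 and 108. Replicate 4 had the smallest total of the 8 libraries and a mitochondrial share of 6.15%. In it *Rfx4*, an RFX factor of neural progenitors and glia, was at 1.85 CPM, where dcKO_Nex-Cre replicates 1 to 3 had 6.55 to 17.1 CPM. *Rfx4* is 1 gene of the 26 tested regulators of multiciliated cells and is named after its values were seen. The summed CPM of that list of regulators was not low in replicate 4, at 621, where dcKO_Nex-Cre replicates 1 to 3 had 589, 601 and 591. The part of these features in the *Foxj1* value was not tested. In replicate 4 *Tekt1* was at 11.96 CPM, close to replicate 1. The ratio of *Tekt1* to *Foxj1* CPM was 0.286 to 0.358 over the control libraries and 0.478, 0.492, 0.530 and 0.938 in dcKO_Nex-Cre replicates 1 to 4. Because *Tekt1* was picked for its increase, this ratio is a description and no separate evidence. The 0.938 goes with the low *Foxj1* value of replicate 4, at 12.7 CPM.

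*Mcidas* was at 1.42, 0.766, 1.25 and 1.19 CPM in control and 0.783, 1.65, 1.36 and 0.786 CPM in dcKO_Nex-Cre replicates. The groups covered nearly the same range (log2 fold change -0.02, SE 0.30, 95% interval -0.69 to 0.65, adjusted p = 0.981), and the interval runs from 0.62-fold to 1.56-fold of control. In bulk tissue a smaller number of ciliated cells and less RNA in each of them cannot be told apart, here or in the results that follow.

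Of the 63 members besides *Tekt1*, edgeR called 0 higher and 0 lower in the dcKO_Nex-Cre cortex, and the smallest adjusted p was 0.274. With *Tekt1* the count is 1 of 64, and nothing is read from it because *Tekt1* was picked for its increase. Over all 16287 genes tested, 0.375% were called higher and 0.51% lower. At an unadjusted p under 0.05, 1 of the 63 was higher and 3 were lower, against 6.59% and 7.05% of all genes. DESeq2 also called 0 of the 63, where it called 1.37% of all genes higher and 1.78% lower. In 0 of the 63 were all dcKO_Nex-Cre libraries above all controls, and in 2 they were all below, against 3.99% and 4.01% of all genes. The log2 fold changes of the 64 members had a median of -0.01 (quartiles -0.12 and 0.18), and those of all genes tested a median of 0.00 (quartiles -0.15 and 0.12). Of the 64, 30 were above 0 and 34 below. The precision of these data allowed a bound for most members, since the 95% interval lay between a halving and a doubling for 52 of the 63 and left out a doubling for 58.

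**Figure D2:**
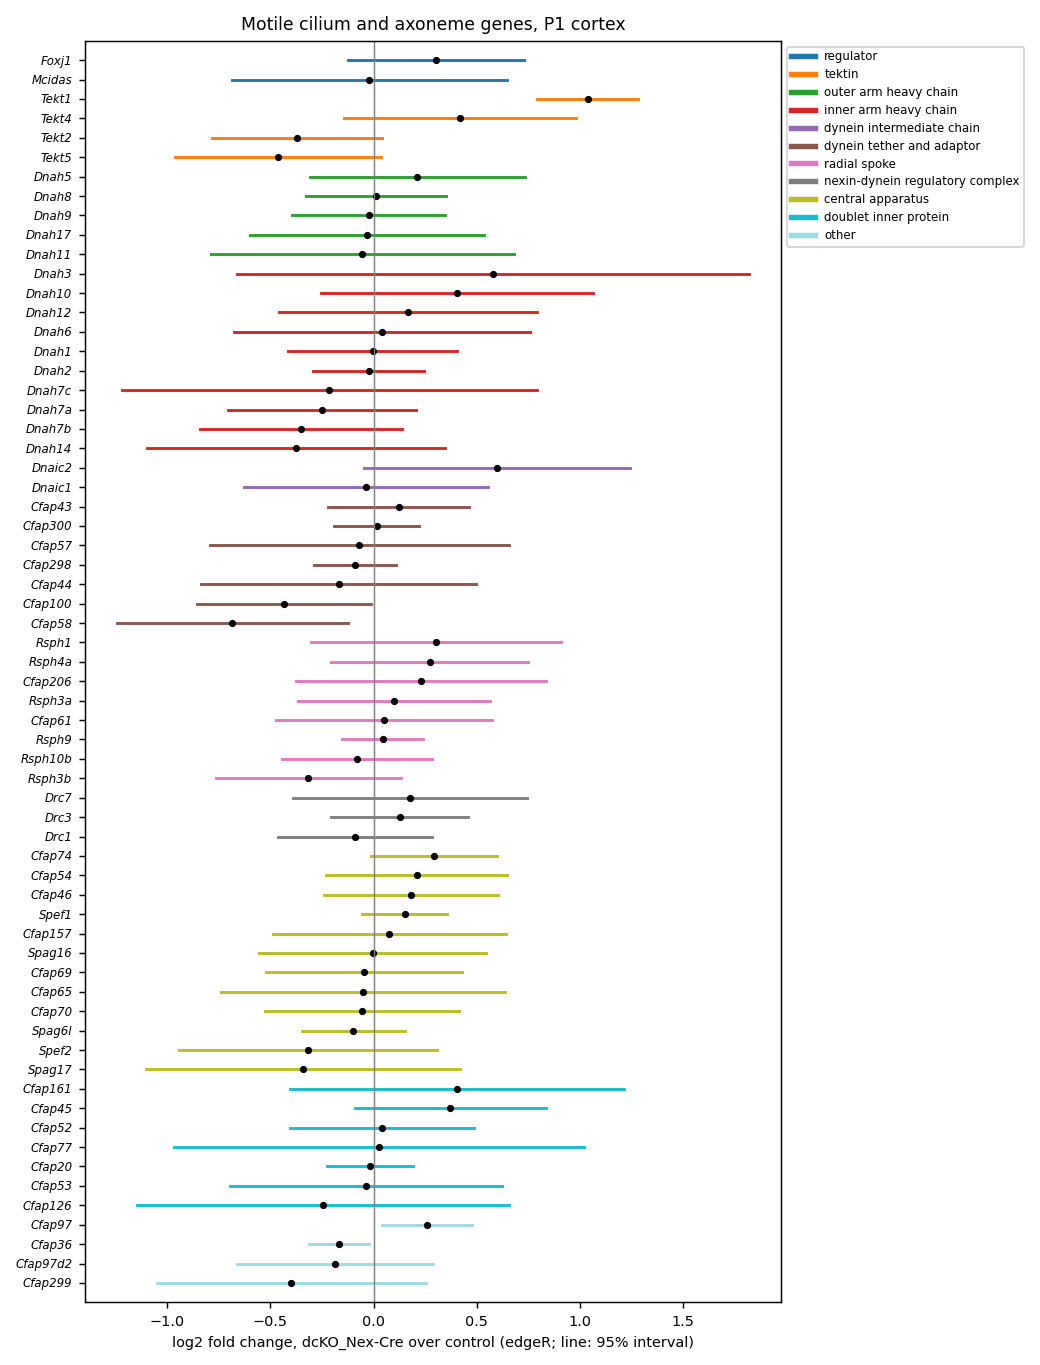
Log2 fold change of each of the 64 members in the dcKO_Nex-Cre over the control cortex (horizontal axis; points, edgeR estimates from 4 against 4 libraries; lines, 95% intervals), ordered and coloured by place in the axoneme. *Tekt1* at 1.04 lies apart from the rest, which run from -0.68 (*Cfap58*) to 0.60 (*Dnaic2*), and the widest interval belongs to *Dnah3*.

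The dynein heavy chains, the motors of the arms, showed no called change. In the outer arm 2 of 5 heavy chains were above 0 and 3 below. *Dnah9* was at 8.01, 9.03, 6.84 and 8.19 CPM in control and 7.33, 8.74, 9.66 and 5.67 CPM in dcKO_Nex-Cre (log2 fold change -0.02, SE 0.17, 95% interval -0.39 to 0.34, adjusted p = 0.960 from edgeR), and the groups overlapped throughout. *Dnah5*, whose loss is known for causing primary ciliary dyskinesia and hydrocephalus, was at 4.76, 3.996, 4.46 and 4.10 CPM in control and 5.91, 4.56, 6.73 and 2.69 CPM in dcKO_Nex-Cre (log2 fold change 0.21, SE 0.24, 95% interval -0.31 to 0.73, adjusted p = 0.713). As in *Foxj1*, dcKO_Nex-Cre replicate 4 was the lowest library for *Dnah5*, whose log2 fold change was 0.41 without that library and 0.04 without replicate 3. Among the 10 inner arm heavy chains 4 were above 0 and 6 below. *Dnah2*, the most abundant of them, was at 13.8, 19.8, 15.02 and 14.1 CPM in control and 14.6, 16.4, 15.5 and 15.2 CPM in dcKO_Nex-Cre (log2 fold change -0.02, SE 0.12, 95% interval -0.29 to 0.25, adjusted p = 0.949). *Dnah3* had the largest difference among them and the fewest counts, with 0.458, 0.766, 0.334 and 0.352 CPM in control and 0.174, 1.49, 0.660 and 0.505 CPM in dcKO_Nex-Cre (log2 fold change 0.58, SE 0.56, 95% interval -0.66 to 1.82, adjusted p = 0.668). Its higher mean rests on dcKO_Nex-Cre replicate 2, and without that library the log2 fold change was -0.14. *Dnah3* also overlaps *Lyrm1*, which has more counts, on the opposite strand. *Dnah7a*, *Dnah7b* and *Dnah7c* are near-identical copies between which the counting could divide reads, and their log2 fold changes of -0.25, -0.35 and -0.21 are uncertain for that reason.

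The intermediate chains of the outer arm, *Dnaic1* and *Dnaic2*, differed in how far they varied. *Dnaic2* was at 2.56, 2.90, 2.25 and 3.30 CPM in control and 2.81, 7.24, 3.34 and 3.26 CPM in dcKO_Nex-Cre replicates (log2 fold change 0.60, SE 0.29, 95% interval -0.05 to 1.24, adjusted p = 0.395 from edgeR). Replicate 2 of the dcKO_Nex-Cre group alone was far above the other 7 libraries, and without it the log2 fold change was 0.19. *Dnaic1* was at 1.69, 1.09, 1.54 and 1.76 CPM in control and 1.07, 2.22, 1.49 and 1.18 CPM in dcKO_Nex-Cre, again highest in replicate 2 (-0.04 on the log2 scale). It overlaps *Enho*, which has more counts, on the opposite strand.

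Of the 7 factors that assemble or tether the dyneins, 0 were called, and *Cfap58* and *Cfap100* were lower at an unadjusted p under 0.05, as were 7.05% of all genes. *Cfap58* was at 1.14, 0.821, 1.08 and 1.59 CPM in control and 0.783, 0.805, 0.660 and 0.617 CPM in dcKO_Nex-Cre, with every dcKO_Nex-Cre library below every control. Its difference did not pass the adjustment (log2 fold change -0.68, SE 0.26, 95% interval -1.25 to -0.12, adjusted p = 0.274 from edgeR). *Cfap100*, a protein of the inner arm adaptor, was at 4.67, 7.28, 4.63 and 5.29 CPM in control and 3.33, 4.75, 4.54 and 3.48 CPM in dcKO_Nex-Cre (log2 fold change -0.44, SE 0.19, 95% interval -0.86 to -0.01, adjusted p = 0.350), and the groups overlapped by 1 library, dcKO_Nex-Cre replicate 2. Without control replicate 2 its log2 fold change was -0.26. *Cfap100* shares sequence on the opposite strand with *Zxdc*, which has more counts. *Cfap298*, needed in the cytoplasm to preassemble dynein arms, was much more abundant, at 28.1 ± 1.91 CPM in control and 26.4 ± 2.34 CPM in dcKO_Nex-Cre (SD, n = 4; log2 fold change -0.09, SE 0.09, 95% interval -0.29 to 0.11, adjusted p = 0.680). *Cfap300*, which has a related role in assembly, was at 14.1 ± 0.924 and 14.2 ± 0.737 CPM (SD, n = 4; log2 fold change 0.01, 95% interval -0.19 to 0.22). In all, 2 of the 7 members of this class were above 0 and 5 below.

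Radial spoke genes were above 0 in 6 of 8 cases, and none passed the test. *Rsph9*, a spoke head protein, was at 24.1, 25.3, 26.5 and 25.9 CPM in control and 26.5, 22.7, 28.7 and 27.00 CPM in dcKO_Nex-Cre (log2 fold change 0.04, SE 0.09, 95% interval -0.15 to 0.24, adjusted p = 0.854 from edgeR). It overlaps *Mrps18a*, which has more counts, on the opposite strand. *Rsph3b* had the largest difference of the class, at 1.83, 1.53, 1.92 and 1.85 CPM in control and 1.68, 1.07, 1.36 and 1.63 CPM in dcKO_Nex-Cre (log2 fold change -0.32, SE 0.20, 95% interval -0.76 to 0.13, adjusted p = 0.511). Reads of *Rsph3b* may be shared with its copy *Rsph3a*, which was at 0.10 on the log2 scale. *Rsph1* and *Rsph4a*, further head proteins, were at log2 fold changes of 0.30 and 0.27, and both were highest in dcKO_Nex-Cre replicate 2, at 6.67 and 7.32 CPM.

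In the nexin-dynein regulatory complex, *Drc1*, its scaffold at the base of the doublet, was at 14.9, 10.7, 12.4 and 14.8 CPM in control and 12.1, 12.4, 15.9 and 8.98 CPM in dcKO_Nex-Cre (log2 fold change -0.09, SE 0.17, 95% interval -0.46 to 0.28, adjusted p = 0.837 from edgeR). *Drc7*, another subunit, was at 1.65, 1.92, 1.42 and 2.33 CPM in control and 2.26, 2.45, 2.31 and 1.12 CPM in dcKO_Nex-Cre (log2 fold change 0.18, SE 0.26, 95% interval -0.39 to 0.74, adjusted p = 0.791). Replicates 1 to 3 of the dcKO_Nex-Cre group lay close together for *Drc7* and replicate 4 lay far below them. *Drc3* was at a log2 fold change of 0.13 (95% interval -0.21 to 0.46).

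The 12 genes of the central apparatus were split into 5 above 0 and 7 below. *Spef1*, a microtubule-bundling protein needed for the central pair, was at 30.1, 33.3, 27.7 and 30.5 CPM in control and 38.00, 32.3, 34.3 and 29.97 CPM in dcKO_Nex-Cre (log2 fold change 0.15, SE 0.09, 95% interval -0.06 to 0.35, adjusted p = 0.494 from edgeR). Part of *Spef1* lies on the same strand as *Cenpb*, which has more counts. *Spag17*, a large protein of the central pair projections, was at 1.24, 0.657, 0.793 and 1.01 CPM in control and 0.638, 1.23, 0.619 and 0.393 CPM in dcKO_Nex-Cre (log2 fold change -0.34, SE 0.35, 95% interval -1.10 to 0.42, adjusted p = 0.682). Its log2 fold change was -0.71 without dcKO_Nex-Cre replicate 2 and -0.17 without control replicate 1. *Spag17* had few counts and overlaps *Wdr3* on the opposite strand. *Cfap74* came nearest to the unadjusted threshold in this class, with a mean of 6.35 ± 0.505 CPM in control and 7.75 ± 1.13 CPM in dcKO_Nex-Cre (SD, n = 4; unadjusted p = 0.0585 and adjusted p = 0.383 from edgeR).

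Proteins inside the doublets other than tektins were above 0 in 4 of 7 cases. *Cfap20*, which seals the inner junction of the doublet and is also found in primary cilia, was at 62.5, 69.5, 56.1 and 60.8 CPM in control and 56.1, 58.9, 59.8 and 71.2 CPM in dcKO_Nex-Cre (log2 fold change -0.02, SE 0.10, 95% interval -0.23 to 0.19, adjusted p = 0.952 from edgeR). *Cfap161* was at 1.14, 0.547, 0.751 and 1.23 CPM in control and 1.13, 2.11, 0.825 and 0.786 CPM in dcKO_Nex-Cre (log2 fold change 0.40, SE 0.37, 95% interval -0.40 to 1.21, adjusted p = 0.642), with dcKO_Nex-Cre replicate 2 above the other 7 libraries. Leaving that library out brought its log2 fold change to 0.01.

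The remaining 4 members have no place in these classes. *Cfap36*, a partner of the small GTPase ARL3, which acts in ciliary transport, was the member with the highest level per length. It was at 99.6, 96.00, 95.6 and 90.7 CPM in control and 87.3, 80.5, 88.3 and 83.6 CPM in dcKO_Nex-Cre, and all dcKO_Nex-Cre libraries were below all controls. The step was small and did not pass the adjustment (log2 fold change -0.17, SE 0.07, 95% interval -0.31 to -0.02, adjusted p = 0.292 from edgeR). *Cfap97* was the only member besides *Tekt1* that was higher at an unadjusted p under 0.05, at 24.1, 24.6, 28.8 and 23.7 CPM in control and 33.4, 32.2, 27.1 and 28.2 CPM in dcKO_Nex-Cre (log2 fold change 0.26, SE 0.10, 95% interval 0.04 to 0.48, adjusted p = 0.287), and it overlaps *Snx25*, which has more counts, on the opposite strand.

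Members differed widely in level. Per kilobase of exon, *Cfap36* was at 34.8 CPM in control, *Cfap298* at 17.7, *Rsph9* at 15.9, *Cfap20* at 13.98 and *Spef1* at 11.1. *Foxj1* was at 6.91 and *Drc1* at 4.92. The heavy chains lay far lower, from 1.05 for *Dnah2* and 0.503 for *Dnah9* to 0.0455 for *Dnah14* and 0.0334 for *Dnah3*. The most abundant members include *Cfap20* and *Cfap36*, which non-motile cilia also use, whereas no heavy chain exceeded 1.05.

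**Figure D3:**
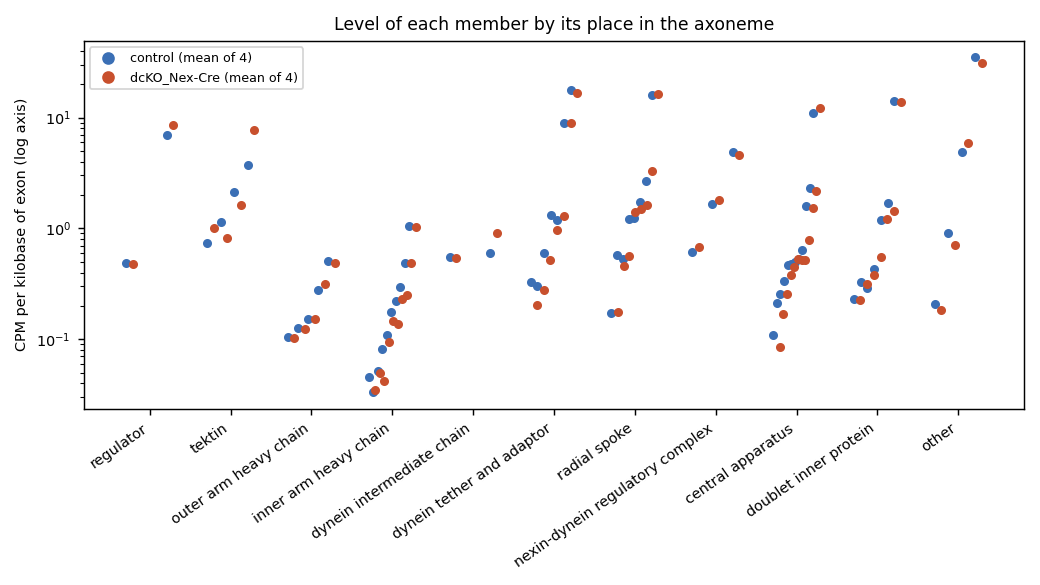
Mean level of each member in CPM per kilobase of exon (vertical log axis) in control (blue) and dcKO_Nex-Cre (orange) libraries, by place in the axoneme. Levels span from 0.0334 (*Dnah3*) to 34.8 (*Cfap36*) in control, and the pair of points of *Tekt1* stands wider apart than its neighbours.

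The members varied more between libraries of a group than counting alone would give. The coefficient of variation had a median of 17.8% over control and 24.8% over dcKO_Nex-Cre libraries, where counting noise alone had a median of 12.4% and 11.1%. Single libraries led many members. Replicate 2 was the highest dcKO_Nex-Cre library for 42 of 64 members (65.6%), against 18.8% of all genes tested, and it was the highest of all 8 libraries for 28. It was highest for 9 of the 10 inner arm heavy chains, 6 of the 7 doublet inner proteins and both intermediate chains, but for only 1 of the 5 outer arm heavy chains and 1 of the 4 members outside the classes. The median ratio of replicate 2 to the mean of the other 3 dcKO_Nex-Cre libraries was 1.40, and it exceeded 1.5 for 22 members. In the control group, replicate 4 was the highest library for 31 members (48.4%), against 22.9% of all genes tested. Replicate 4 was the lowest dcKO_Nex-Cre library for 29 members (45.3%), against 37.8% of all genes tested, and replicate 3 was the lowest control library for 29, against 24.6%.

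With each member set to a mean of 1 over the 8 libraries, the 63 members without *Tekt1* averaged 0.998, 1.01, 0.894 and 1.10 in control replicates 1 to 4 and 0.905, 1.25, 1.01 and 0.827 in dcKO_Nex-Cre replicates 1 to 4. The ranges of the groups overlapped, with the dcKO_Nex-Cre group the wider. *Tekt1* on the same scale was 0.620 to 0.724 in control and 1.26 to 1.46 in dcKO_Nex-Cre, so that its groups did not overlap. The summed CPM of all 64 members was 478 to 526 in control and 475 to 548 in dcKO_Nex-Cre libraries.

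The libraries also differed in choroid plexus RNA. *Ttr*, the transthyretin gene that marks choroid plexus epithelium, was at 718, 13.96, 89.00 and 1305 CPM in control and 12.4, 543, 4.83 and 2.86 CPM in dcKO_Nex-Cre replicates. The summed CPM of 20 choroid plexus markers was 66.7 to 1489 in control and 48.9 to 641 in dcKO_Nex-Cre. Of the 16 tested, 2 were above 0 and 14 below. By edgeR 1 was called lower, against 0.51% of all genes tested. It was *Wfdc2* (log2 fold change -1.61, SE 0.32, 95% interval -2.31 to -0.92, adjusted p = 0.0439 from edgeR). Control replicate 4 and dcKO_Nex-Cre replicate 2, the libraries that led the members within their groups, held the most *Ttr* of their groups, and control replicate 1, which also held much *Ttr*, did not lead them. The part of choroid plexus RNA in the members' values was not tested. Ependymal markers summed to 3107 to 3303 CPM in control and 2945 to 3124 CPM in dcKO_Nex-Cre, mostly *Nnat* and *Cd24a*, which neurons also express, and 0 of 17 tested, 5 of them also among the cilium genes outside the naming rule, were called by edgeR (0 higher and 1 lower, *Mia*, at an unadjusted p under 0.05, and 0 by DESeq2). At that unadjusted p, 6.59% of all genes tested were higher and 7.05% lower. Of the 17, 11 were above 0 and 6 below, with a median log2 fold change of 0.06. *Ccdc153*, more specific to ependyma and named after its values were seen, was at 1.37, 1.64, 0.835 and 0.881 CPM in control and 0.638, 4.06, 1.24 and 0.842 CPM in dcKO_Nex-Cre. Among the 5 markers shared with the cilium genes outside the rule, *Enkur*, *Ak7* and *Dynlrb2* were also highest in dcKO_Nex-Cre replicate 2 within that group. *Tppp3* was highest of the group in replicate 1, at 22.6 CPM, and *Meig1* in replicate 4, at 2.86 CPM. With only the 2 control and 3 dcKO_Nex-Cre libraries that had less than 100 CPM of *Ttr*, an alternative chosen after these values were seen, the log2 fold change of *Tekt1* was 1.03, and 0 of the other 63 members were called. Over all genes, 8 were called higher and 1 lower with these libraries, so nothing is read from the 0.

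**Figure D4:**
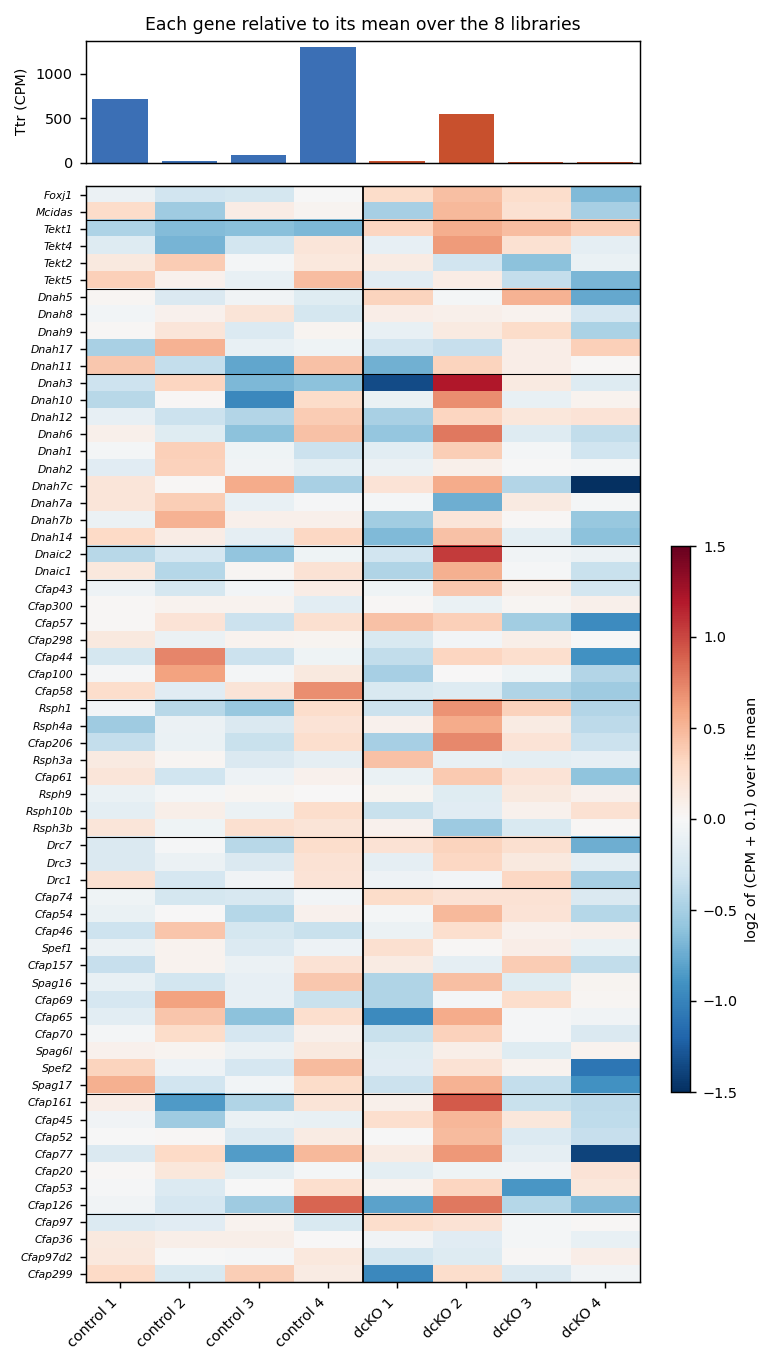
Each member (rows, grouped by place in the axoneme) in the 8 libraries (columns), as the log2 of CPM + 0.1 over the mean of the row (colour), beneath a bar chart of *Ttr* in CPM. Red runs down the column of dcKO_Nex-Cre replicate 2 and blue down that of replicate 4, whereas *Tekt1* is blue in all 4 control and red in all 4 dcKO_Nex-Cre libraries.

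Other genes of the motile cilium, which the naming rule leaves out, gave a second view of the same structure. Of 80 symbols listed, 70 were found and 60 were tested. Among those found were the nexin-dynein gene *Gas8*, the axoneme genes *Ccdc39* and *Ccdc40*, and *Hydin* of the central pair. The docking and assembly factors *Ccdc114*, *Ccdc151*, *Zmynd10* and *Dnaaf1* were also found. In edgeR, the test called 0 higher and 0 lower. DESeq2 called 0 higher and 1 lower, against 1.37% and 1.78% of all genes tested. At an unadjusted p under 0.05 there was 1 in each direction, against 6.59% and 7.05% of all genes tested. The median log2 fold change of the 60 was 0.02, with 33 above 0 and 27 below. The gene lower in both readings was *Efcab1*, an EF-hand protein of the outer arm docking complex, at 9.98, 9.36, 9.30 and 11.9 CPM in control and 7.33, 6.90, 7.68 and 5.05 CPM in dcKO_Nex-Cre (log2 fold change -0.58, SE 0.15, 95% interval -0.91 to -0.25, adjusted p = 0.122 from edgeR). *Efcab1* is named after its values were seen, as is *Ccdc40*, at 12.2, 11.8, 13.02 and 12.6 CPM in control and 17.3, 16.5, 14.5 and 12.1 CPM in dcKO_Nex-Cre (log2 fold change 0.29, SE 0.12, 95% interval 0.02 to 0.55, adjusted p = 0.331). The library pattern of these genes was like that of the members. Their mean relative level was 0.848 to 1.11 over control libraries, with replicate 4 the highest, and 0.899, 1.35, 1.03 and 0.815 in dcKO_Nex-Cre replicates 1 to 4, and replicate 2 was the highest dcKO_Nex-Cre library for 41 of 60.

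**Figure D5:**
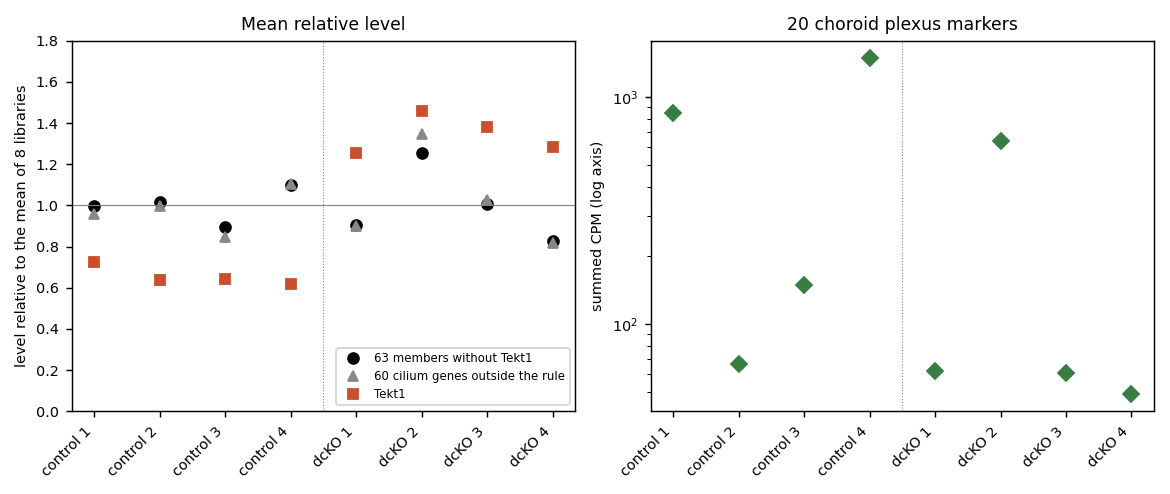
Left, mean level relative to the average of the 8 libraries (vertical axis, from 0) for the 63 members without *Tekt1* (circles), 60 motile cilium genes outside the naming rule (triangles) and *Tekt1* (squares) in each library. Right, summed CPM of 20 choroid plexus markers (log axis). The circles and triangles move together and peak in dcKO_Nex-Cre replicate 2, at 1.25 and 1.35, while *Tekt1* is below 1 in every control and above 1 in every dcKO_Nex-Cre library.

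Upstream regulators of multiciliated cells were examined as well. In edgeR, the test called 0 of 26 tested genes, and DESeq2 called 0. At an unadjusted p under 0.05, 1 was higher and 1 lower, against 6.59% and 7.05% of all genes tested. The median log2 fold change of the 26 was -0.04. *Rfx2*, an RFX factor of ciliogenesis, was at 3.76, 3.34, 4.01 and 3.66 CPM in control and 5.77, 4.25, 5.82 and 3.70 CPM in dcKO_Nex-Cre (log2 fold change 0.41, SE 0.18, 95% interval 0.02 to 0.80, adjusted p = 0.338 from edgeR). *Rfx3*, its more abundant relative, was at 77.5, 98.6, 77.7 and 78.7 CPM in control and 101, 83.05, 86.9 and 92.9 CPM in dcKO_Nex-Cre (log2 fold change 0.13, SE 0.10, 95% interval -0.08 to 0.34, adjusted p = 0.567). *Gmnc*, which acts above *Mcidas*, and *Ccno* and *Deup1*, which act in centriole amplification, had log2 fold changes of -0.44, 0.13 and 0.21, and *Ccno* and *Deup1* were highest in dcKO_Nex-Cre replicate 2. These genes, too, are named after their values were seen.

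RFX and FOXJ1 motifs were then counted in the RefSeq promoters of the members (GRCm38.p6, 250 bases before to 50 after the start, both strands). A promoter was matched for 53 of the 64 members, *Foxj1* not among them. GTTGCCAT, one side of the X-box, was found for 5 of the 53 (9.43%), against 1.54% of the 27025 genes with a promoter. The wider form GTTNCCAT, which contains the first, was found for 11 of 53 (20.8%), against 5.12% of all genes. GTAAACA, the forkhead motif, was found for 3 of 53 (5.66%), against 4.05%. The first motif is thus present for *Tekt1* and for 4 members that were not called, *Cfap161* and *Cfap74* above 0 and *Cfap44* and *Cfap97d2* below it, at log2 fold changes of 0.40, 0.29, -0.17 and -0.19. The matches are shown with 16 bases on either side, in the direction of transcription, with the motif or its reverse complement in capitals, so that *Tekt1* can be read beside members that were not called. The 95% interval of *Cfap161*, -0.40 to 1.21, includes the log2 fold change of *Tekt1*.

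Tekt1 (chr11:72361874-72361913, minus strand): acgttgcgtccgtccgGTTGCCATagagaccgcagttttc
Cfap161 (chr7:83794857-83794896, minus strand): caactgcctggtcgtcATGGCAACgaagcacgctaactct
Cfap74 (chr4:155409187-155409226, plus strand): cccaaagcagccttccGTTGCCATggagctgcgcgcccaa
Cfap44 (chr16:44394762-44394801, plus strand): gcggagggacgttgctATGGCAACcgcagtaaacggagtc
Cfap97d2 (chr8:13705852-13705891, plus strand): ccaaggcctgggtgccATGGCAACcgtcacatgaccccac

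A match is a run of letters in this window and not a measured binding site, and a promoter without one may hold other forms of the element.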

How the data were processed

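RNA-seq of P1 cortex was analysed for 4 control and 4 dcKO_Nex-Cre samples. The labels call the second group mutant, and its Cre line was taken from the methods of the study. Total RNA was made into libraries with an Illumina TruSeq kit. For each library the authors deposited whole-number counts by Ensembl identifier, not normalized. The submitters' processing notes name the build mm10, whereas the aligner, the counter, the annotation and the strand setting are not given in the sources used here. Without a strand setting, reads of overlapping genes cannot be told apart, and 17 members overlap a gene with more counts.

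Of the 48709 genes, 48349 were matched to GENCODE M21 (GRCm38) for symbol, position and exon length. Genes were filtered with filterByExpr (16287 kept, all 64 members included), normalized by TMM and compared with the two-sided quasi-likelihood test of edgeR 4.0.16 in R 4.3.3, with Benjamini-Hochberg adjustment over all genes tested and a threshold of 0.05. The biological coefficient of variation was 0.143. Alternatives were DESeq2 1.42.0, its size factors in edgeR, limma-voom (limma 3.58.1), other filters, the replicate number as a block, lane tag 2 only, and leaving out each library. Lane tags come from the file names. The scripts were tested on simulated data. The labels do not say that replicates are separate animals, so p-values measure the spread between these samples, which may be technical. Every pair of libraries of the same group differed by more than counting noise (chi-square per degree of freedom at least 3.52).

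The members, the lists of genes and the markers were chosen with earlier results of these data known. The text names *Tekt1*, *Foxj1*, *Mcidas*, all tektins, the 3 members with the largest and the 3 with the smallest log2 fold change, in each class the most abundant member and the one with the largest difference, and members whose groups did not overlap. Other members are named for a copy, an overlap, a motif, a library or an unadjusted p, after their values were seen. Of the marker lists it names genes that passed the test and the most abundant, and others are named for a library. Identity between tektin proteins was not analysed here.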

Additional observations from a re-analysis of the deposited data

Results flagged for a closer look

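A library far from the others of its group was looked for in each of the 23 named members and in the summed CPM of the members, by the gap to the nearest value over the range of the group. In 48 groups of 4 values, 2.4 would stand out by chance at 1 in 20, and 2 did. Some of these members were named for a large log2 fold change, which 1 outlying library can produce. The 2.4 is for groups not picked in that way, so nothing is read from its nearness to 2. *Dnaic2* was at 7.24 CPM in dcKO_Nex-Cre replicate 2, where the other 3 libraries of the group were at 2.81 to 3.34 CPM, and its log2 fold change was 0.60 with and 0.19 without that library. *Drc7* was at 1.12 CPM in dcKO_Nex-Cre replicate 4, where the others were at 2.26 to 2.45 CPM, and its log2 fold change was 0.18 with and 0.36 without that library.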

How the results depend on the processing

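The 22 named members other than *Tekt1* were recomputed under 16 alternatives each, which gives 352 values. None was called with all 8 libraries, and 351 of the values were not called either, whereas *Foxj1* passed the threshold without dcKO_Nex-Cre replicate 4 (log2 fold change 0.49). *Tekt1*, for which no test is read, had log2 fold changes from 0.998 to 1.09 over its 16 alternatives. Counted with *Tekt1*, members called higher numbered 1 to 2 when each library was left out (2 without dcKO_Nex-Cre replicate 4, the second being *Foxj1*), 0 with the libraries of little *Ttr*, and 1 under the other alternatives. Members called lower were 0 throughout, and the median log2 fold change of the members ran from -0.09 to 0.07. Of the cilium genes outside the rule, DESeq2 called 1 lower, and leaving out each library gave 0 to 1 in each direction (1 and 1 without dcKO_Nex-Cre replicate 4). Counts over all genes, 61 higher and 83 lower, moved much more: 215 and 279 with DESeq2, 109 and 150 with no filter, 140 higher within lane tag 2, 8 and 1 with the libraries of little *Ttr*, and 9 to 659 higher and 9 to 619 lower when each library was left out, the largest without dcKO_Nex-Cre replicate 4 and the smallest without control replicate 1. Same-numbered libraries deviated together with r = 0.13, 0.02, 0.13 and -0.14 for numbers 1 to 4. Control replicate 2 and dcKO_Nex-Cre replicate 4 had r = 0.37. The main test used no pairing, and these values cannot show whether the samples were paired. With the replicate block 21 genes were higher and 33 lower, and *Tekt1* was at 1.03. The least counted member, *Dnah3*, with 13.75 counts on average, had a 95% interval of -0.66 to 1.82, which includes a doubling.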

Other observations

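Genes shared by all cilia were examined beside those of motile cilia. Of 31 genes of intraflagellar transport, the machinery that carries cargo along every cilium, edgeR's test called 0 (1 higher and 1 lower at an unadjusted p under 0.05, against 6.59% and 7.05% of all genes tested, and 1 higher and 0 lower by DESeq2, against 1.37% and 1.78%). Of these 22 were above 0 and 9 below, with a median log2 fold change of 0.05, and all 31 intervals lay between a halving and a doubling. Of 36 genes of the primary cilium, edgeR's test called 0 (6 higher and 1 lower at an unadjusted p under 0.05, and 2 higher and 0 lower by DESeq2, to be set against the same shares of all genes), with 22 above 0 and a median of 0.04. Their summed CPM was 1349 to 1394 in control and 1389 to 1512 in dcKO_Nex-Cre libraries.

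Among markers of other cells of the cortex, 0 of 18 tested genes of radial glia and astrocytes, 0 of 12 of interneurons and 0 of 15 of meninges and vessels were called by edgeR, and at an unadjusted p under 0.05 there were 2 higher and 2 lower, 0 higher and 1 lower, and 0 higher and 1 lower. DESeq2 called 2, 1 and 1 of them lower and 0 higher. For these lists and the microglial one, the shares over all genes tested serve as the background. They were 0.375% higher and 0.51% lower by edgeR, 1.37% and 1.78% by DESeq2, and 6.59% and 7.05% at an unadjusted p under 0.05. Of 10 microglial markers 6 were above 0 and 4 below. At an unadjusted p under 0.05 there were 3 higher and 1 lower, and DESeq2 called 2 higher and 1 lower. By edgeR 1 was called higher and 0 lower. It was the complement gene *C1qb*, at 20.5, 19.8, 18.6 and 21.9 CPM in control and 25.9, 27.1, 31.03 and 27.2 CPM in dcKO_Nex-Cre (log2 fold change 0.46, SE 0.09, 95% interval 0.26 to 0.66, adjusted p = 0.0422 from edgeR). The marker that DESeq2 called lower was *P2ry12*, which did not pass by edgeR, a receptor of resting microglia named after its values were seen, at 12.4, 11.7, 12.02 and 12.4 CPM in control and 9.30, 7.20, 8.996 and 6.96 CPM in dcKO_Nex-Cre (log2 fold change -0.57, SE 0.12, 95% interval -0.84 to -0.30, adjusted p = 0.0596 from edgeR), with no overlap between the groups.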
